A study of Rattus norvegicus with 12 samples.

Results

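The Hox cluster genes of rat esophageal tissue were followed in gene counts and in lists of m6A peaks. Members were all genes of the count table whose symbol was Hoxa, Hoxb, Hoxc or Hoxd followed by a number only, which gave 20 of 17450 genes: 2 of the A cluster, 7 of B, 5 of C and 6 of D. RefSeq's GRCr8 annotation lists 39 rat Hox genes, among them all 20 by symbol, and the others were not analysed here for expression. The BE group was esophageal tissue after esophagoduodenostomy (EDA) surgery, in which esophagus and duodenum are connected so that duodenal contents reach the esophagus, an approach used to model Barrett's esophagus in rats. The NC group was esophageal tissue without treatment. Each group had 3 input RNA-seq libraries and 3 libraries immunoprecipitated (IP) with an antibody to N6-methyladenosine (m6A), a methyl mark on RNA. The labels give no strain, sex, age or time after surgery. They also do not tie the 3 samples of a group to different animals, so the p-values reflect a sample-to-sample spread that could be technical.

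Hox genes encode homeodomain transcription factors that give cells their address along the head-to-tail axis. They sit in clusters, and within a cluster the genes with low paralog numbers are switched on further forward and those with high numbers further back, an order known as collinearity. Adult tissues keep part of this code, mostly in mesenchymal cells such as fibroblasts and muscle, where it records the place a tissue came from. Hox proteins bind DNA together with homeodomain partners of the TALE class (Pbx, Meis and Pknox), and Polycomb and Trithorax complexes hold the genes off or on.

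Total gene counts ran from 11213531 to 17471748 per input library. Levels are CPM, a gene's counts scaled to a common library size with TMM normalization. Libraries differed in makeup with the groups. The 17 listed striated muscle markers summed to 4194 to 5623 CPM in BE and 84881 to 95866 CPM in NC, and 13 fibroblast and mesenchyme markers to 2548 to 3032 CPM in BE and 5370 to 6940 CPM in NC. The 12 squamous epithelium markers summed to 67665 to 72472 CPM in BE and 38373 to 50953 CPM in NC, while 12 markers of simple columnar and intestinal epithelium stood at 152 to 309 CPM in BE and 115 to 165 CPM in NC, with 4, 7 and 5 of them at 0 in BE libraries and 5, 4 and 4 at 0 in NC libraries. By these lists the tissue labelled BE held far more squamous than columnar marker RNA. BE replicate 1 held 10016 CPM of 12 hepatocyte markers, against 64.0 to 156 CPM in the other 5 libraries. In whole tissue, fewer cells of a type and less RNA per cell cannot be told apart, and the part of these shifts in the Hox values was not tested.

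Of the 20 Hox genes, 11 had enough counts to be tested between the groups. Hoxd8 was lower in BE, none was higher, and 10 did not pass (edgeR's quasi-likelihood test over 13761 genes, with a threshold of 0.05 on the adjusted p). Over all tested genes 21.8% fell and 21.8% rose, and 43.6% passed in either direction, so 1 of 11 is not above the background. At an unadjusted p under 0.05, 4 were lower and 1 higher in BE. Every gene that passed by adjusted p also meets this threshold, so its shares over all tested genes are at least those above. By adjusted p, the count lower was 2 without BE replicate 1 and 3 without BE replicate 3. Those fits called 3114 of 14098 and 2793 of 14149 tested genes lower. Also by adjusted p, DESeq2 called 3 lower and 0 higher, and limma voom with quality weights called 2 lower and 1 higher. Over all 13761 tested genes DESeq2 called 3248 lower and 3052 higher, and voom 3160 lower and 3134 higher. The fitted difference lay below 0 for 10 of the 11, and for 6686 of all 13761 tested genes. The median log2 fold change of the 11 was -0.71, against 0.03 over all tested genes. Hoxc8 was the exception. The 11 passed a filter on low counts that a gene can meet through its higher group alone, so this median describes them and the count of signs is not support for a shared fall. In 5 of the 11 every BE library lay below every NC library and in 1 every BE library lay above, where the shares over all tested genes were 27.8% and 28.2%.

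**Figure D1:**
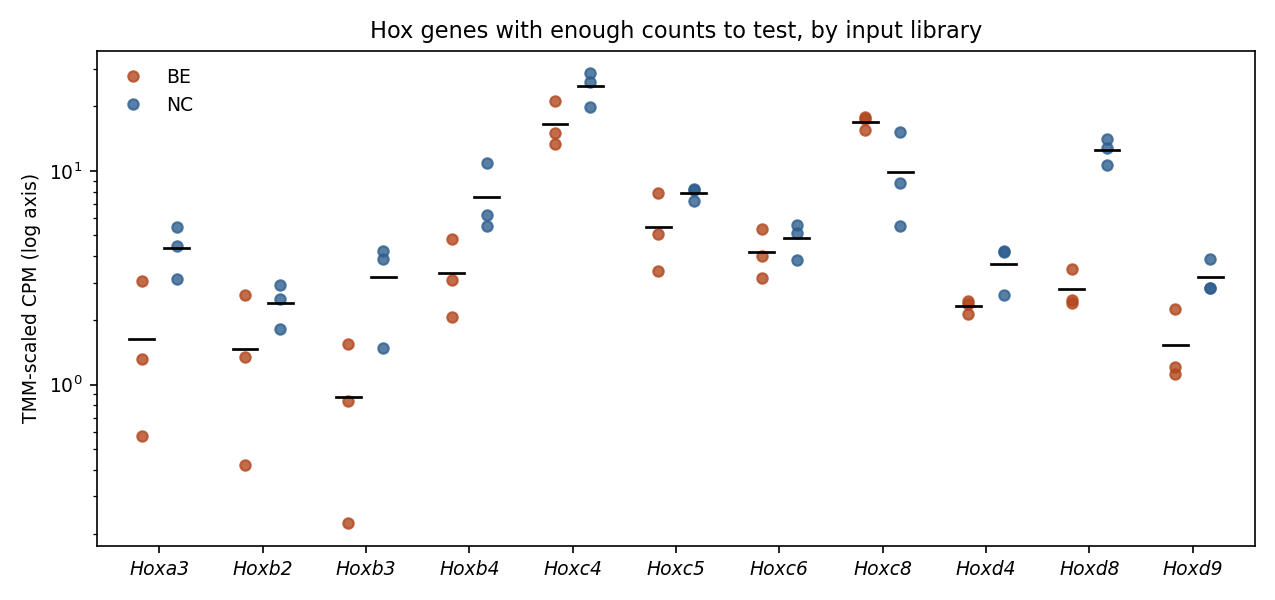
TMM-scaled CPM (vertical log axis) of the 11 tested Hox genes in each input library, BE at the left and NC at the right of each gene. Points are libraries and short lines are group means over 3 libraries. The BE points of Hoxd8 lie between 2.41 and 3.49 CPM and its NC points between 10.6 and 14.1 CPM.

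The Hox D cluster, on chromosome 3 in GRCr8, held the one change that passed. Hoxd8 belongs to the paralogs that pattern the trunk. It stood at 2.48, 2.41 and 3.49 CPM in BE replicates 1 to 3, and at 14.1, 12.8 and 10.6 CPM in NC replicates 1 to 3. The BE libraries were all low and close together, and the groups did not come near each other. The log2 fold change was -2.16 ± 0.32 (SE, adjusted p = 0.00039), a 4.46-fold lower level in BE. It passed in each of 12 other fits, which left out single libraries or changed the scaling, filter, block or tool, with log2 fold changes of -2.36 to -2.05 and an adjusted p of at most 0.00352. Without BE replicate 1, the library high in hepatocyte markers, it was -2.05 (adjusted p = 0.000706).

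The neighbours of Hoxd8 did not pass. Hoxd9, a gene that marks the caudal trunk and the limb buds, had 2.27, 1.20 and 1.13 CPM in BE and 2.82, 2.82 and 3.88 CPM in NC, without overlap (log2 fold change -1.05 ± 0.57, adjusted p = 0.170). Hoxd4, which in the mouse helps to shape the upper neck vertebrae, had 2.37, 2.47 and 2.14 CPM in BE and 2.62, 4.16 and 4.24 CPM in NC. Its groups also did not overlap, but BE replicate 2 and NC replicate 1 lay close together (-0.66 ± 0.48, adjusted p = 0.294). The ratio of Hoxd8 to Hoxd4 counts within a library, which no scaling can alter, was 1.04, 0.977 and 1.63 in BE and 5.38, 3.06 and 2.51 in NC. Every BE library therefore had fewer Hoxd8 reads per Hoxd4 read than any NC library, a ratio picked after the values were seen and given as a description.

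The start regions of these 3 neighbours are shown because one gene passed and those beside it did not. Each is 300 bases from RefSeq's GRCr8 tables, 250 before and 50 after the annotated start, on the plus strand, and capitals mark CG dinucleotides.
Hoxd9, chr3:80007756-80008055: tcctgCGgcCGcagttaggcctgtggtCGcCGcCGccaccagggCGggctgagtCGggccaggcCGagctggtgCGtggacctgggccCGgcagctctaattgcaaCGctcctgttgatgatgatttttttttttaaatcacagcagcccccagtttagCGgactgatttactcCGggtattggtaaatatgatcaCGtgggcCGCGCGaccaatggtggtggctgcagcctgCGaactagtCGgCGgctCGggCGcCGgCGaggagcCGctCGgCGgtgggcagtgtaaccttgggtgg
Hoxd8, chr3:80014973-80015272: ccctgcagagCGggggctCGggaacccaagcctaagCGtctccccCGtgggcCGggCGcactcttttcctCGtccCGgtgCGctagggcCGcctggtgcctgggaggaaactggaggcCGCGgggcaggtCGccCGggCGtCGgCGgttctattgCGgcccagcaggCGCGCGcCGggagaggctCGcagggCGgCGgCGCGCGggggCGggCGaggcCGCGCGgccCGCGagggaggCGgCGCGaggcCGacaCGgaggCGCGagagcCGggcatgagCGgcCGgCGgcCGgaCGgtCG
Hoxd4, chr3:80021636-80021935: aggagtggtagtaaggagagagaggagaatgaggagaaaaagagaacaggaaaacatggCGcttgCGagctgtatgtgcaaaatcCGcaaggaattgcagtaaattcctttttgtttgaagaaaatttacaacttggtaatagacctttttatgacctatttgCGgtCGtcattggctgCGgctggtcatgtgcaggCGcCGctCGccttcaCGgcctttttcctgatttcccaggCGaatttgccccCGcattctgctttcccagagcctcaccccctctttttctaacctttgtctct
The Hoxd8 window is the richest in CG of the 3, with 49 such pairs and a GC share of 79.0%. Hoxd9 has 27 pairs at 62.7% GC and Hoxd4 has 12 at 47.3% GC, while the median over all 33469 promoters of the table is 7 pairs and 51.7% GC. Runs rich in CG are typical of genes under Polycomb control, stated as background only. The letters CCAAT, on either strand, occur at 2 places in the Hoxd9 window, 1 in Hoxd4 and 0 in Hoxd8, and in 37.5% of all promoters. TGACAG, the core of MEIS sites, occurs on neither strand of the 3 windows and in 19.0% of all promoters. A match or its absence describes these letters only. The tables held a start region for 9 of the 20 genes.

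In the Hox C cluster, on chromosome 7 in GRCr8, 4 of the 5 genes were tested and none passed. Hoxc8, a trunk paralog known in the mouse for patterning the lower ribs and the motor neurons of the forelimb, was the only tested Hox gene with a fitted difference above 0. It had 17.9, 17.5 and 15.5 CPM in BE and 15.2, 8.80 and 5.53 CPM in NC. The BE libraries were alike and all above NC, though NC replicate 1 came within reach of BE replicate 3. The log2 fold change was 0.79 ± 0.34 with an adjusted p of 0.0837. It passed without NC replicate 1 (1.24, adjusted p = 0.0123) and with voom (0.93, adjusted p = 0.0292). The adjusted p over its 12 alternatives ran from 0.0123 to 0.216.

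Hoxc4 is a gene whose loss in the mouse leaves defects of the esophagus and its muscle coat. It had 15.1, 13.4 and 21.2 CPM in BE and 26.1, 19.8 and 28.6 CPM in NC, with BE replicate 3 above the lowest NC library. The log2 fold change of -0.58 ± 0.24 had an adjusted p of 0.0716, and it passed without BE replicate 3 (-0.82, adjusted p = 0.0279; range over alternatives 0.0279 to 0.213). Hoxc5 had 7.90, 3.38 and 5.06 CPM in BE and 8.25, 8.13 and 7.25 CPM in NC (-0.53 ± 0.37, adjusted p = 0.281). Hoxc6, another gene of the thoracic level, had 4.004, 3.15 and 5.34 CPM in BE and 3.82, 5.57 and 5.10 CPM in NC, fully overlapping (-0.22 ± 0.40, adjusted p = 0.699). In RefSeq the spans of Hoxc4 and Hoxc5 lie inside that of Hoxc6, and no source states whether counting used strand, so reads of these 3 genes may have been shared out between them.

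Hoxc8 and Hoxd8 are paralogs of the same number, and their balance differed between the groups. Per library there were 7.21, 7.29 and 4.44 Hoxc8 reads for each Hoxd8 read in BE, and 1.08, 0.689 and 0.520 in NC. Every BE library was above every NC library, again as a description of a pair picked after its values were seen. The ratio of Hoxc8 to Hoxc4 was 1.19, 1.31 and 0.729 in BE and 0.583, 0.444 and 0.193 in NC, also without overlap. The ratio of Hoxc4 to Hoxd4 overlapped, at 6.36, 5.42 and 9.92 in BE and 9.96, 4.76 and 6.75 in NC. Ratios between genes also carry their transcript lengths, so only the difference between libraries can be read from them.

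**Figure D2:**
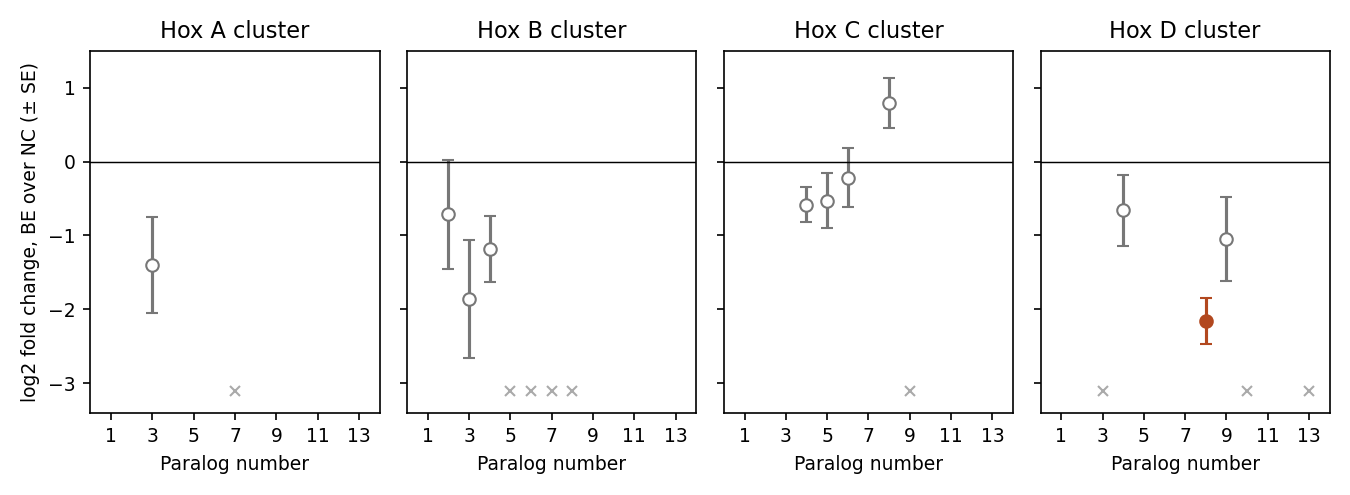
Log2 fold change of BE over NC (vertical axis, ± SE from edgeR) of each tested Hox gene against its paralog number, 1 panel per cluster. The filled point is Hoxd8 at -2.16, the only gene that passed, open points did not pass, and crosses at the lower edge mark genes with too few counts to test. Hoxc8 at 0.79 is the only point above 0.

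In the Hox B cluster, on chromosome 10 in GRCr8, 3 of the 7 genes were tested, all of low paralog number, and none passed. Hoxb4, known for its part in blood stem cells, had 4.79, 2.06 and 3.09 CPM in BE and 10.9, 6.25 and 5.53 CPM in NC. All BE libraries lay below NC (log2 fold change -1.18 ± 0.45, adjusted p = 0.0561). This value lies at the edge of the threshold: Hoxb4 passed in 4 of 12 alternatives, with RLE scaling (adjusted p = 0.0496), DESeq2 (0.0294), voom (0.0478) and without BE replicate 1 (-1.51, adjusted p = 0.0225), and its adjusted p reached 0.241 without NC replicate 1. Hoxb3, a hindbrain and pharyngeal gene, had 0.843, 1.55 and 0.225 CPM in BE and 4.22, 1.48 and 3.88 CPM in NC, where NC replicate 2 fell among the BE values. Its log2 fold change was -1.86 ± 0.80 (adjusted p = 0.0873), and it passed with DESeq2 (adjusted p = 0.0446; range over alternatives 0.0446 to 0.239). Hoxb2, which acts with Hoxb1 in the hindbrain, had 0.4215, 2.64 and 1.35 CPM in BE and 2.92, 1.81 and 2.51 CPM in NC (-0.71 ± 0.74, adjusted p = 0.474).

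In the Hox A cluster, on chromosome 4 in GRCr8, Hoxa3 was the 1 gene tested. In the mouse it is needed for the thymus and parathyroid, organs of the pharynx. It had 1.32, 0.573 and 3.04 CPM in BE and 3.12, 5.44 and 4.45 CPM in NC, where BE replicate 3 and NC replicate 1 nearly met. The log2 fold change was -1.40 ± 0.64 (adjusted p = 0.107). It passed without BE replicate 3 (-2.21, adjusted p = 0.0299; range over alternatives 0.0299 to 0.281). The span of Hoxa3 in RefSeq overlaps those of Hoxa4, Hoxa5 and Hoxa6.

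The 9 genes with too few counts to test had at most 22 counts in a library. Hoxb7 reached that number in BE replicate 2, with 0 and 2 counts in the other BE libraries and 7, 1 and 5 in NC. Hoxb6 showed the same unevenness at 0, 12 and 0 counts in BE and 1, 12 and 8 in NC. Hoxc9, which in the mouse sets the thoracic level of the spinal cord, had 1, 2 and 14 counts in BE and 0, 0 and 1 in NC, so most of its BE reads came from replicate 3. Hoxd10, a gene of the lumbar level and the limbs, had 6, 6 and 13 counts in BE and 1, 13 and 5 in NC. Hoxa7, Hoxb5, Hoxb8, Hoxd3 and Hoxd13 had at most 6 counts in any library. Hoxd13, the member with the highest paralog number, had 2 counts in all, both in NC replicate 2. A count of 0 allows up to 3 counts at this depth, so these genes were near or under what the libraries can show.

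Read by paralog number, the tested genes ran from Hoxb2 to Hoxd9. Paralogs 1-3 summed to 4.04 ± 1.26 CPM in BE and 10.2 ± 1.17 CPM in NC (SD, n = 3 each). Paralogs 4-5 summed to 27.7 ± 5.64 CPM in BE and 44.0 ± 5.03 CPM in NC. Paralogs 6-8 were nearer each other at 24.7 ± 0.340 CPM in BE and 28.1 ± 5.78 CPM in NC. Paralogs 9-13 summed to 2.31 ± 0.564 CPM in BE and 3.69 ± 0.707 CPM in NC. Most of the sum came from Hoxc4 for paralogs 4-5 and, in BE, from Hoxc8 for paralogs 6-8, and the sums carry no test.

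By cluster, Hox D summed to 7.17 ± 0.654 CPM in BE and 20.1 ± 0.861 CPM in NC, and without Hoxd8 to 4.38 ± 0.504 CPM in BE and 7.60 ± 1.29 CPM in NC. Hox C summed to 43.4 ± 5.31 CPM in BE and 47.4 ± 5.55 CPM in NC, within the spread of the libraries. Hox B summed to 6.51 ± 1.61 CPM in BE and 14.1 ± 4.42 CPM in NC. Hox A, with 2 genes, summed to 1.64 ± 1.26 CPM in BE and 4.39 ± 1.18 CPM in NC. All 20 genes together made up 52.8 to 63.6 CPM in BE and 79.05 to 95.7 CPM in NC.

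**Figure D3:**
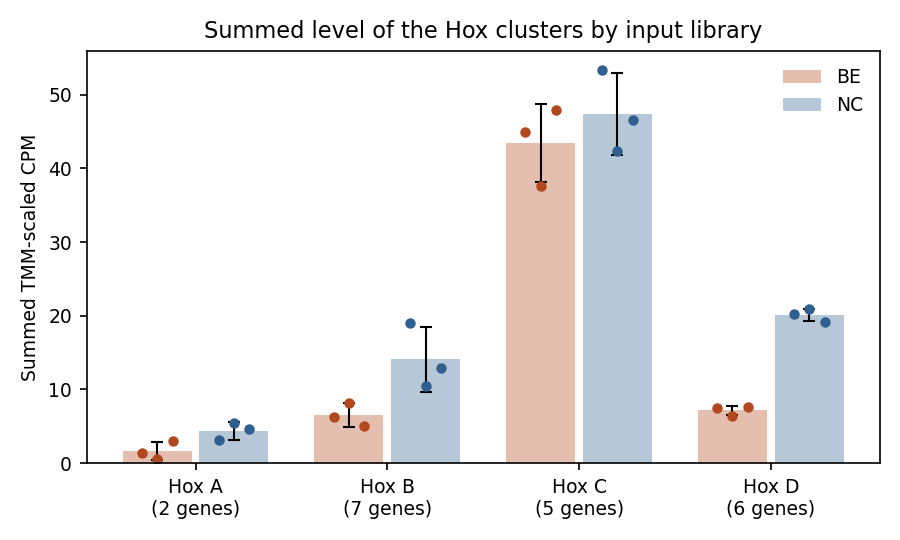
Summed TMM-scaled CPM (vertical axis) of the genes of each Hox cluster, BE left of NC. Bars are means over 3 libraries, whiskers are SD and points are libraries. Hox D stands at 7.17 CPM in BE and 20.1 CPM in NC, while the Hox C bars overlap in their spread.

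The IP libraries gave a second view, since peaks were called in each of them. Across the 6 lists, 89 peaks carried a Hox gene name. Of the 20 members, 16 had a peak in at least 1 list. Hoxa2, whose expression was not analysed here, had peaks as well. All 11 tested members had a peak in at least 1 list, as did 5 of the 9 that were too rare to test. Among all genes with a symbol, 62.1% had a peak in some list, and among tested genes 73.3%. Each BE list held 13 to 15 Hox peaks among 19329 to 20531 peaks in all. Each NC list held 15 to 17 among 16644 to 18864. Merged where they overlapped by at least 1 base, the peaks formed 27 regions, of which 7 were in all 6 lists and 8 in 1 list only. Positions are those of the lists, whose genome build no source names.

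Hoxb4, Hoxc5, Hoxc6, Hoxc8 and Hoxd8 had a peak in all 6 lists, 5 of 20 members, where 38.1% of all genes did. In each NC list the most enriched Hox region was on Hoxb4, at chr10:83971541-83972644. The authors' fold enrichment there was 20.8, 22.1 and 36.2 in BE IP replicates 1 to 3 and 82.55, 43.7 and 64.5 in NC IP replicates 1 to 3, which placed it at the 82.8 percentile of its list or above. In each BE list the most enriched Hox region was on Hoxc8, which carried 2 regions found in every list, chr7:142396429-142396864 and chr7:142398205-142398994. The first had fold enrichments of 26.6, 41.6 and 37.1 in BE and 34.6, 13.99 and 21.8 in NC, the second 23.3, 21.7 and 20.6 in BE and 34.8, 23.5 and 43.6 in NC. Hoxa2, which sets the identity of the second pharyngeal arch, also had a region in all 6 lists, with 13.1, 10 and 14.5 in BE and 26.97, 18.03 and 34.2 in NC.

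Hoxd8, the gene that fell, kept its m6A region in every list, at chr3:68093954-68094253. Its fold enrichment was 7.40, 12.7 and 8.66 in BE and 16.1, 18.4 and 20.4 in NC. The BE values were all below the NC values, but the medians over all peaks were also lower in BE, at 8.59, 9.55 and 8.61, than in NC replicates 1 and 3, at 13.4 and 11.6, and 9.18 in NC replicate 2. A fold enrichment is the authors' own value within its list, and no test was made between lists.

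Some genes had peaks in 1 group only. Hoxc9 had one in all 3 BE lists and in no NC list, which 1.60% of genes did. It lay at chr7:142389613-142389991 with fold enrichments of 18.4, 14.9 and 27.1. Its input counts were 1, 2 and 14 in BE and 0, 0 and 1 in NC, and a difference in methylation cannot be told apart from one in RNA level. Hoxb3 and Hoxd4 had a peak in all 3 NC lists and in no BE list, which 1.57% of genes did. The Hoxd4 region, chr3:68099689-68100083, had fold enrichments of 19.3, 18.3 and 20.5 in NC, above the median of each NC list, and no peak in BE. Its input level was 2.14 to 2.47 CPM in BE and 2.62 to 4.24 CPM in NC, and the part of that level in the missing peak was not tested. The Hoxb3 region, chr10:83997119-83998068, had 8.14, 8.21 and 7.51 in NC, below the median of each NC list. The input level of Hoxb3 was 0.225 to 1.55 CPM in BE and 1.48 to 4.22 CPM in NC. The part of that level in the missing BE peak was not tested either.

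Hoxb6 and Hoxb7, neighbours in the B cluster, shared a pattern. Each had a peak in all 3 BE lists and in NC replicate 3 only, with fold enrichments of 7.68, 6.41 and 7.98 in BE and 6.80 in NC for Hoxb6, and 6.01, 6.63 and 10.6 in BE and 8.35 in NC for Hoxb7. Some of these peaks scored near 50, the lowest score of the lists (-10 times log10 of p). The scores of Hoxb6 were 101, 67.8 and 136 in BE and 50.5 in NC. Those of Hoxb7 were 57.8, 69.4 and 213 in BE and 97.6 in NC. Both genes had 0 input counts in BE replicate 1. Without NC IP replicate 3 the count of members with peaks in BE lists only would be 3 and not 1. Hoxa3 had a peak in 2 BE and 3 NC lists, Hoxd9 likewise, and Hoxc4 in 2 BE lists and 1 NC list. Hoxb2 had peaks in 2 NC lists at different places and Hoxd10 in 1 NC list. Hoxa7 had its peaks as a pair in BE replicate 3 and NC replicate 1, at places 85795 bases apart that both carry the same transcript, NM_001109233, and span 434 bases each. Hoxb5, Hoxb8, Hoxd3 and Hoxd13 had none.

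Where peaks were shared between lists, their edges were often the same to the base: of 19 regions found in 2 or more lists, 12 had identical bounds in all of them. The regions of Hoxb4, Hoxc5, Hoxc6, Hoxc8 and Hoxd8 in all 6 lists are among these, and that of Hoxa2 is not.

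The partners of Hox proteins were read from a list of 10 genes, of which 9 were tested: 4 were lower in BE, 0 were higher and 5 did not pass by edgeR, where 21.8% of all tested genes were lower, 21.8% higher and 43.6% called either way. Pknox2, a TALE homeodomain gene, had 1.84, 3.84 and 3.77 CPM in BE and 30.2, 29.2 and 22.8 CPM in NC, a wide gap (log2 fold change -3.12 ± 0.31, adjusted p = 3.45e-05). Pbxip1, which encodes a protein that binds Pbx proteins and hinders their pairing with Hox proteins on DNA, had 31.8, 39.9 and 45.4 CPM in BE and 130.3, 130.4 and 131.2 CPM in NC (-1.74 ± 0.14, adjusted p = 9.41e-06). Meis2 lay close to the threshold, with 24.4, 29.4 and 34.7 CPM in BE and 37.4, 41.0 and 44.5 CPM in NC (-0.48 ± 0.17, adjusted p = 0.0446), and passed in 5 of 12 alternatives, whose adjusted p ran from 0.0319 to 0.152.

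The remaining partners did not pass. Meis1 averaged 70.1 ± 8.92 CPM in BE and 69.9 ± 9.27 CPM in NC (SD, n = 3 each), and its log2 fold change was 0.00 ± 0.14. Pbx2 averaged 38.2 ± 2.89 CPM in BE and 45.2 ± 3.05 CPM in NC. Pbx3 averaged 12.5 ± 4.495 CPM in BE and 14.2 ± 2.81 CPM in NC. Pknox1 averaged 10.5 ± 1.12 CPM in BE and 11.1 ± 1.45 CPM in NC. Meis3, the rarest, averaged 1.603 ± 1.16 CPM in BE and 1.97 ± 0.704 CPM in NC. The list's median log2 fold change was -0.30, against 0.03 over all tested genes. The sums of muscle markers given above moved with the groups in the same direction, and their part in these falls was not tested.

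**Figure D4:**
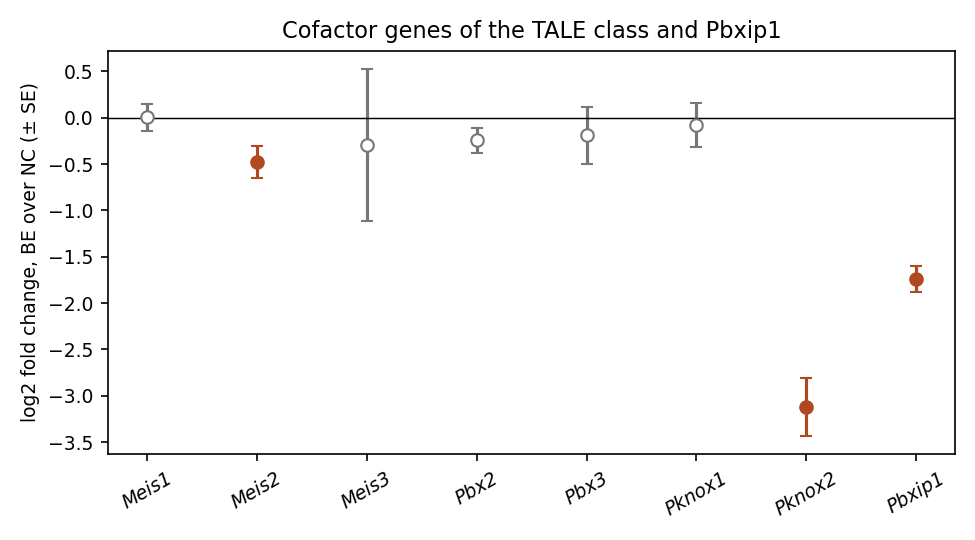
Log2 fold change of BE over NC (vertical axis, ± SE from edgeR) of 8 tested partner genes. Filled points passed and open points did not. Pknox2 is lowest at -3.12, followed by Pbxip1 at -1.74, and Meis1 lies at 0.00.

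Of 23 tested Polycomb genes, which help to hold the Hox clusters off, 7 rose, 4 fell and 12 did not pass, with a median log2 fold change of 0.30. With 43.6% of all tested genes called, 21.8% in each direction, the share called in this list and in the Trithorax and retinoid lists below lies near the background. Ezh2, the methyltransferase of histone H3 lysine 27 in dividing cells, rose to 35.9 ± 1.72 CPM in BE, against 17.7 ± 1.23 CPM in NC (1.02 ± 0.16, adjusted p = 0.00063). Its partner subunit Suz12 rose by 0.84, while Ezh1, the relative of Ezh2 found in resting cells, fell by 0.82 and the chromobox gene Cbx6 by 1.53 on the log2 scale. Of 14 Trithorax and demethylase genes 4 rose, 3 fell and 7 did not pass (median 0.18). Wdr5, a shared subunit of the methyltransferase complexes, rose by 0.75, and Dpy30 by 0.53 with a call that held in 3 of 12 alternatives. Kmt2a, the enzyme that keeps Hox genes active, fell by 0.54 and the acetyltransferase gene Kat6b by 0.93.

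Of 17 tested genes of retinoid signaling and other inputs to the clusters, 4 rose, 3 fell and 10 did not pass (median -0.24), against 21.8% of all tested genes in each direction. Aldh1a1 and Aldh1a3, enzymes that make retinoic acid, fell by 1.98 and 2.19 on the log2 scale. Aldh1a1 stood at 61.4, 64.6 and 60.1 CPM in BE and 279.9, 215 and 239 CPM in NC. Gmnn, which encodes the replication inhibitor geminin, rose by 1.67 on the log2 scale. Cdx1 and Cdx2 were not analysed here.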

How the data were processed

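Per the labels' protocols, an m6A-IP kit was applied to total RNA, and a low-input whole-RNA kit served for both kinds of library. Per the submitters' processing notes, cutadapt 1.9.3 and HISAT2 2.0.4 were used. The build, counting tool, use of strand and peak caller's version and control are stated in no source used. The authors deposited raw counts per gene for the 6 input libraries, used here, and 6 further per-sample columns, which were not used. They deposited 1 peak list per IP library. Per the file headers it gives a score of -10 times log10 of p, at least 50 in every list, and a fold enrichment, a ratio by the authors' caller. IP depth is unknown. Start positions were raised by 1, since stop minus start equals the listed peak length.

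The whole table was fitted in edgeR 4.0.16 (R 4.3.3), with filterByExpr at a minimum count of 10, TMM scaling and robust quasi-likelihood tests of BE against NC without covariates, and Benjamini-Hochberg adjustment with a threshold of 0.05. The SE is the log2 fold change divided by the square root of F. The fit was tried on simulated counts with known fold changes. These lacked the difference in makeup between the groups, so the trial cannot speak for the scaling of these data. Alternatives used DESeq2 1.42.0, limma 3.58.1, other scalings, no filter, the replicate number as a block and single libraries left out. Peaks were assigned by the gene names in the lists and were described without tests. Every Hox gene tested was named, as were tested TALE partners and up to 2 genes per direction of each other list; some genes are not reported here. The members and lists were chosen with earlier results of these data known. Python 3.11.15, pandas 2.3.3 and matplotlib 3.10.9 were used.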

Additional observations from a re-analysis of the deposited data

How the results depend on the processing

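The fall of Hoxd8 passed in all 12 alternative fits, and each of the 11 tested Hox genes kept its direction in every one of them. The count of Hox genes called lower, 1 as reported, was 2 with RLE scaling, 3 with DESeq2 and 2 with limma voom. It ran from 1 to 3 when single input libraries were left out. Over all 13761 tested genes, RLE scaling, DESeq2 and voom called 3066, 3248 and 3160 lower, and voom called 3134 higher. The count of Hox genes called higher, 0 as reported, was 1 with voom and ran from 0 to 1 when single input libraries were left out. With the replicate number as a block, 1 was lower and 0 were higher. The numbers are not shown to pair the samples: same-numbered libraries of the groups had correlations of -0.0408, 0.00646 and -0.073 in their deviations from the group means, and over all genes the block gave 2540 rises and 2683 falls, against 2999 and 2996 without it. The 27 merged regions became 20 with a score of at least 100 and 25 with a fold enrichment of at least 5. The count of genes with peaks in BE lists only, 1 as reported, ran from 1 to 3 when single IP lists were left out, and the count with peaks in NC lists only, 2 as reported, from 2 to 3. The 9 genes with at most 22 counts in any library were too rare to compare at this depth.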

Other observations

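Of 20 tested foregut regional factors outside the Hox clusters, 4 rose, 9 fell and 7 did not pass by edgeR, with a median log2 fold change of -0.69. Over all tested genes 21.8% rose and 21.8% fell. Markers of some other cell types moved with the groups. The 11 nerve and glia markers summed to 128 to 148 CPM in BE and 204 to 362 CPM in NC. The 7 smooth muscle markers summed to 262 to 367 CPM in BE and 1989 to 2855 CPM in NC. Sums overlapped for 11 leukocyte markers, at 365 to 933 CPM in BE and 261 to 576 CPM in NC. They also overlapped for 8 endothelium markers, at 339 to 406 CPM in BE and 308 to 348 CPM in NC. The part of such shifts in the values of these factors was not tested. Isl1, a LIM homeodomain factor of the foregut mesenchyme and of neurons, stood at 0, 0.229 and 0.281 CPM in BE and 16.5, 12.6 and 9.27 CPM in NC. Tbx5, a T-box factor of the heart, forelimb and lung field, had 0, 0 and 0.0563 CPM in BE and 5.83, 2.15 and 3.38 CPM in NC. Tp63, the master factor of squamous epithelium, rose to 613, 707 and 709 CPM in BE, against 211, 237 and 212 CPM in NC. Pitx1, a homeodomain factor of the hindlimb and oral region, rose by 0.97.

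Of 8 tested homeobox relatives outside the clusters, 2 rose, 1 fell and 5 did not pass, where 43.6% of all tested genes were called in either direction. Dlx5 stood at 3.95, 3.50 and 2.59 CPM in BE and 0.402, 0.269 and 0.934 CPM in NC. Meox1 and Meox2, both genes of the somites and muscle, went opposite ways. Meox1 had 3.11, 4.24 and 7.59 CPM in BE and 1.01, 1.34 and 1.94 CPM in NC, a call that held in 9 of 12 alternatives. Meox2 had 6.74, 6.14 and 7.93 CPM in BE and 14.99, 23.3 and 17.02 CPM in NC.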
